A study of Zea mays with 12 samples.

Results

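The 114 maize probe sets here were chosen because mean signals of reciprocal hybrids differed, toward the seed parent, beyond what genome copies would give. They were measured in endosperm, the nutritive tissue of the kernel, taken 19 days after pollination from plants grown in the field and belonging to 4 genotypes: the inbreds B73 and Mo17 and the reciprocal hybrids B73xMo17 and Mo17xB73. In each hybrid name the first parent is taken as the female, by the usual convention for maize crosses. Each genotype had 3 replicates from 3 crossing dates. A replicate pooled 36 endosperms (6 from each of 6 ears) on 1 single-colour Affymetrix array, so there were 12 arrays in all. The error behind each test is therefore that between pools of ears of 1 field season. It includes differences between crossing dates, except in the date test and where a replicate block is named.

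Endosperm is triploid. It carries 2 genome copies from the female and 1 from the male, so a transcript made in proportion to gene copies lies closer to the female parent in each reciprocal hybrid. A parentally imprinted gene departs from that dose since one parent's copies are more active than the other's. The position between the parents was expressed as a female weight, which is 0.5 × (1 + reciprocal difference / inbred difference), all from linear genotype means. A weight of 0.5 means that the hybrids were equal, 0.667 is the position given by dose, and 1 means that the hybrids differed from each other as much as the inbreds did. The weight reads only the difference between the hybrids, so an equal amount added to both leaves it where it was. A rise of both hybrids by the same fold widens their difference and so moves the weight further from 0.5.

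Of 17621 probe sets other than array controls, 16168 had no gene symbol in the platform annotation. Among these, 1513 had a mean scaled signal of at least 100 in the brighter inbred and at least 2-fold the other inbred, 806 of them higher in B73 and 707 higher in Mo17. The members are the 114 of these 1513 with a female weight of at least 0.9 and with all 3 arrays of one hybrid above all 3 of the other. They were thus chosen by the inbred difference, the reciprocal difference and the weight, so these values are given as description with no test. A further 12 probe sets reached 0.9 but had overlapping hybrids, 11 of them higher in Mo17. None of the members has a gene name here, and they are called by their array names, in which the number after Zm is the sequence cluster that the probes were designed from.

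The weights of all 1513 probe sets lay around dose, with a median of 0.670 and quartiles of 0.607 and 0.747. The members are the upper tail of that distribution. It held 42 of the 806 probe sets higher in B73 (5.21%) and 72 of the 707 higher in Mo17 (10.2%). With the values as deposited, before scaling, the rule gave 26 probe sets higher in B73 and 116 higher in Mo17, so the share higher in B73 was 18.3% in place of 36.8%.

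**Figure D1:**
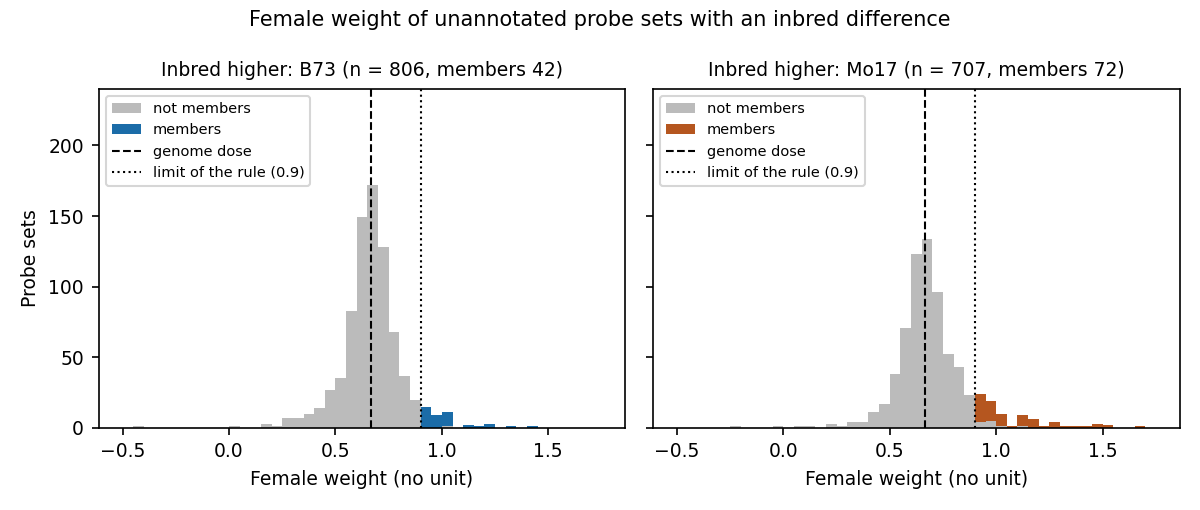
Number of unannotated probe sets that met the inbred conditions (vertical axis) by female weight (horizontal axis, no unit), for the 806 higher in B73 and the 707 higher in Mo17. Grey bars are probe sets outside the rule and coloured bars the 42 and 72 members, stacked on the grey. The dashed line marks dose at 0.667 and the dotted line the limit of 0.9; both distributions peak near dose, and the right tail is longer for Mo17.

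The inbred differences of the members ran from 2.00-fold to 50.2-fold, with medians of 2.69-fold for those higher in B73 and 2.65-fold for those higher in Mo17. In 88 members the inbreds differed by less than 4-fold, in 15 by 4-fold to 8-fold, and in 11 by 8-fold or more, 9 of the 11 being higher in Mo17. The brighter inbred averaged under 300 in 56 members and at least 1000 in 20. The dimmer inbred was under 50 in 35 members.

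Zm.6048.2.S1_at had the largest inbred difference. Its scaled signals were 16.9, 17.9 and 16.4 in B73 and 588, 1049 and 932 in Mo17, replicates 1 to 3 in that order here and below. They were 79.8, 62.0 and 79.9 in B73xMo17 and 814, 716 and 802 in Mo17xB73. Every Mo17xB73 array was at least 8.96-fold above every B73xMo17 array, yet B73xMo17, at 73.9 ± 10.3 (SD, n = 3), lay 4.33-fold above its B73 female at 17.1 ± 0.763. The weight was 0.919. Brighter probe sets of the same cluster did not share this inbred difference. Zm.6048.2.S1_a_at was at 2082 in B73 and 2408 in Mo17, with a weight of 0.709. Zm.6048.1.S1_at was at 1102 in B73 and 1058 in Mo17.

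Zm.5754.1.A1_at had the widest gap between the hybrids. It was at 61.0, 39.8 and 54.2 in B73 and 40.5, 33.1 and 36.6 in B73xMo17. It was at 433, 811 and 738 in Mo17 and 839, 1203 and 467 in Mo17xB73. The lowest Mo17xB73 array was 11.5-fold above the highest B73xMo17 array, and the weight was 1.16. This member stayed within the rule under each of 3 other scalings and without any single array.

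Zm.1583.2.A1_a_at and a pair from cluster Zm.7304 completed the strong Mo17 side with weights of 0.926 to 0.951. Zm.1583.2.A1_a_at averaged 41.0 ± 14.1 in B73, 99.1 ± 36.1 in B73xMo17, 618 ± 81.8 in Mo17 and 591 ± 113 in Mo17xB73. Zm.18259.1.A1_s_at averaged 5.02 ± 0.326 in B73, under the 20th percentile of all scaled values (10.6), and 105 ± 18.2 in Mo17. No detection calls were used here, so a mean under 10.6 was taken as 10.6 and the fold as a bound, which made Mo17 at least 9.94-fold higher. Its B73xMo17 arrays were spread at 8.12, 22.6 and 39.0, and their mean was at least 2.20-fold that of B73. In the other 3 members and Zm.6048.2.S1_at the B73xMo17 mean was 2.21-fold to 4.33-fold above the B73 mean. The hybrid arrays of all 5 did not overlap, as the rule requires of each member.

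Among members higher in B73 the largest inbred difference was at least 16.9-fold, in Zm.18395.1.S1_at, whose Mo17 mean was also under 10.6. It was at 127, 214 and 195 in B73 and 77.0, 192 and 193 in B73xMo17. Its arrays with a Mo17 female were at 11.9, 1.77 and 4.34 in Mo17 and at 5.86, 18.9 and 6.47 in Mo17xB73. The weight was 0.915.

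Zm.3855.1.S1_at was next, with 406 ± 102 in B73, and its Mo17 arrays read 20.8, 45.1 and 60.1. Its dimmer hybrid, Mo17xB73, lay at 123 ± 26.8, which is 2.92-fold above the female, and B73xMo17 spread from 186 to 617. Zm.9653.1.A1_at was the closest to a plain female level among the strong members: B73xMo17 read 115, 125 and 121 beside 127, 151 and 101 in B73, and Mo17xB73 read 23.0, 20.3 and 16.6 beside 30.7, 16.5 and 20.3 in Mo17. Its hybrids were thus at 0.954 and 0.888 times their females. In Zm.16879.1.A1_at, Zm.17337.1.A1_at and Zm.11822.1.A1_at the inbreds differed by 4.14-fold to 5.23-fold and the dimmer hybrid was 1.37-fold to 1.81-fold above its Mo17 female.

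**Figure D2:**
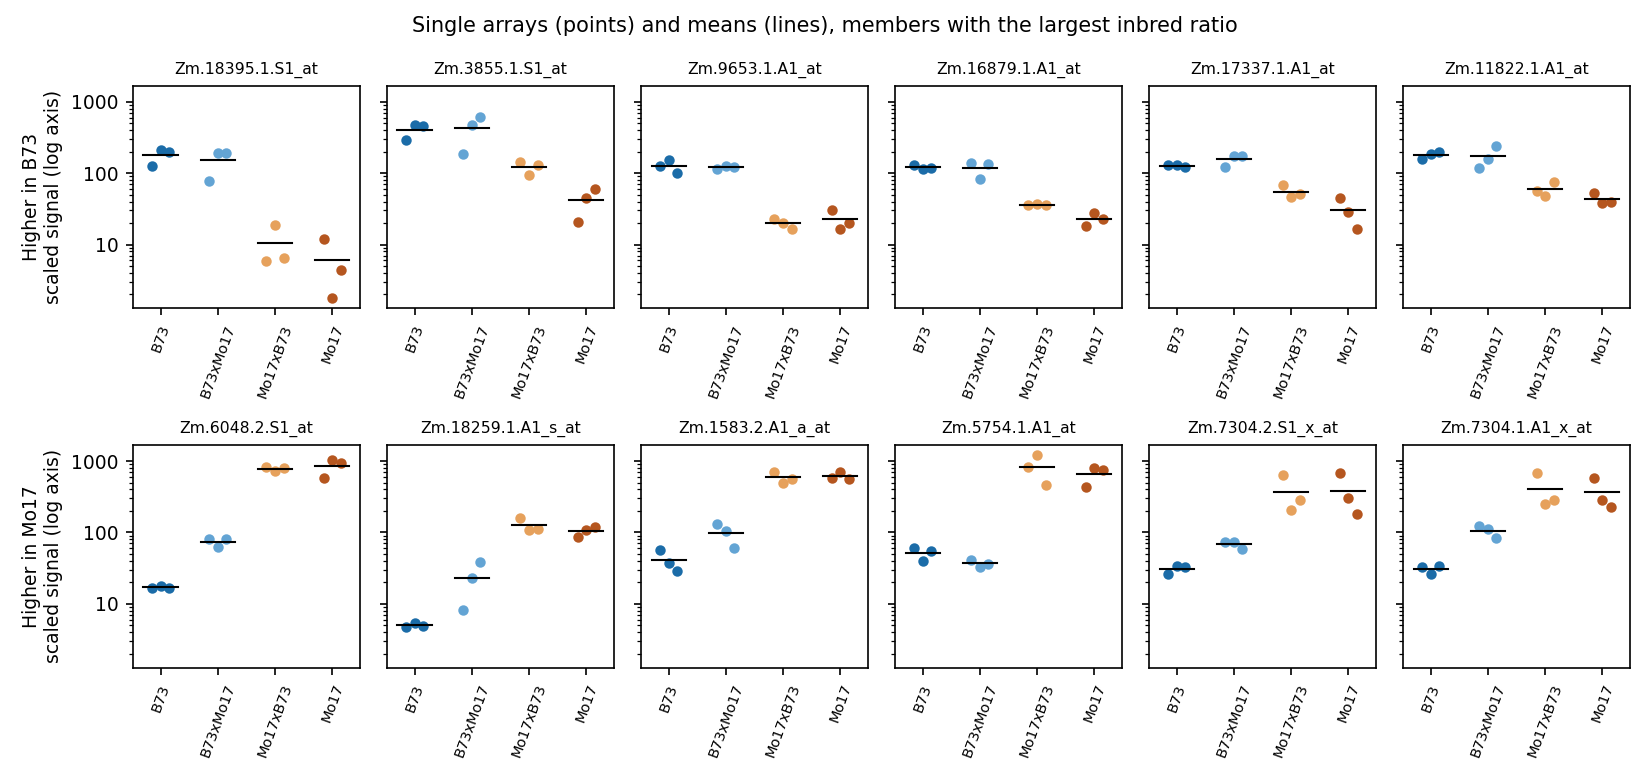
Scaled signal of single arrays (points, log axis) and the mean of 3 (lines) in B73, B73xMo17, Mo17xB73 and Mo17 for the 6 members with the largest inbred ratio in each direction. In each panel the 3 points of B73xMo17 and the 3 of Mo17xB73 do not overlap, as the rule requires. In Zm.5754.1.A1_at the hybrid arrays are at least 11.5-fold apart.

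The brightest members differed less between the inbreds. Zm.10090.1.A1_x_at was the brightest, at 5585 ± 620.1 in Mo17 and 5587 ± 238 in Mo17xB73 against 2477 ± 248 in B73 and 3097 ± 119.7 in B73xMo17. It also lay just inside the rule, at a weight of 0.9004. Zm.3975.1.S1_at, Zm.6752.1.A1_at and Zm.13480.1.S1_at followed on the Mo17 side, with 3638 to 4359 units in Mo17.

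In 3 members all arrays of the dimmer hybrid lay below all arrays of its female. One was Zm.886.1.A1_a_at, with 3008 ± 356 in Mo17. Its B73xMo17 arrays were at 586, 370.1 and 363, all below the B73 arrays at 1048, 819.9 and 948, and Mo17xB73 was at 2567, 4281 and 4035. The hybrids thus differed by 8.25-fold in their means where the inbreds differed by 3.20-fold, and the weight was 1.27. Its 3 weights by date were 1.14, 1.33 and 1.30.

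On the B73 side ZmAffx.1222.1.S1_at was the brightest, at 3644, 3538 and 2934 in B73 and 3783, 3446 and 2583 in B73xMo17. It was at 1035, 1659 and 1532 in Mo17 and 1375, 1895 and 1366 in Mo17xB73. Zm.11764.1.A1_at and Zm.15564.1.A1_at followed with 2643 ± 117 and 2375 ± 595 in B73. Zm.18983.1.A1_at held close replicates, with 1461 ± 61.7 in B73, 1587 ± 106 in B73xMo17, 534 ± 72.4 in Mo17 and 722 ± 77.8 in Mo17xB73.

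Each hybrid was also set against its own female parent. The brighter hybrid had a median of 1.09 times its female for members higher in B73 and 1.11 times for those higher in Mo17, and the dimmer hybrid 1.28 and 1.13 times. Both hybrids averaged above their females in 62 of the 114 members, which is 26 of 42 and 36 of 72. The weight rises with upward error of the brighter hybrid, and with downward error of the dimmer hybrid or brighter inbred. The ratios to the female use the means that chose the members. They are therefore description, and no such count is given for other probe sets. In 20 members the brighter hybrid was above and the dimmer hybrid below its female, 16 of them higher in Mo17; these are the members whose hybrid means lay outside the inbred means at both ends.

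Weights over 1 were found in 56 members and weights of at least 1.1 in 36, of which 28 were higher in Mo17. The highest was 1.69, in Zm.1527.2.A1_a_at, which was at 1463, 668 and 689 in Mo17 and 2277, 813 and 1073 in Mo17xB73 beside 493, 366 and 523 in B73 and 375, 220.0 and 147 in B73xMo17. The highest on the B73 side was 1.45, in Zm.3101.1.S1_at, at 111 ± 18.4 in B73, 149.7 ± 49.2 in B73xMo17, 47.6 ± 6.26 in Mo17 and 28.6 ± 15.5 in Mo17xB73. In both of them the brighter hybrid's spread was wide, with SDs of 781 and 49.2.

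**Figure D3:**
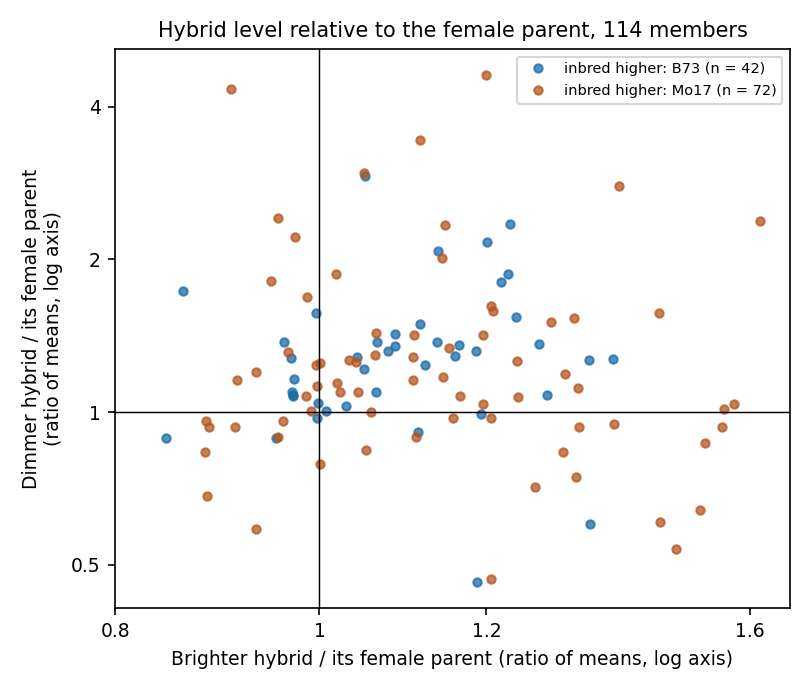
Mean of the brighter hybrid divided by the mean of its female parent (horizontal, log axis) against the same ratio for the dimmer hybrid (vertical, log axis), 1 point per member, 42 higher in B73 and 72 higher in Mo17. Lines mark a ratio of 1. In the upper right, where both hybrids exceed their females, lie 62 points, and 20 lie in the lower right. The ratios use the means that chose the members.

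The 3 dates allowed the choice and the value to be separated. When the same rule was applied to 2 dates only, the left-out date supplied values that the choice had not used. The probe sets chosen without date 1 numbered 148, and their median weight on date 1 was 0.906. Without date 2 there were 114, with a median of 0.913 on date 2, and without date 3 there were 104, with a median of 0.924 on date 3. The other probe sets meeting the inbred conditions had medians of 0.657, 0.667 and 0.665 on those same dates. Between 51.4% and 56.7% of the chosen probe sets again reached 0.9 on the left-out date, against 6.64% to 7.58% of the others, and of the 3 chosen sets 79, 86 and 78 probe sets are members. These are descriptions, since a single date has 1 array per genotype.

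Within the members, weights from single dates were at least 0.9 on all 3 dates in 39 of 114, and over 0.667 on all 3 dates in 107. The weight ranged by less than 0.2 over the dates in 23 members and by 1 or more in 11. The gap between the lowest array of the brighter hybrid and the highest of the dimmer was at least 1.5-fold in 81 members, at least 2-fold in 40 and under 1.1-fold in 3, all 3 higher in Mo17. In 1 member the inbred arrays overlapped.

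The most even were Zm.4598.1.S1_at, with weights of 0.974, 0.974 and 0.946, and Zm.13478.1.S1_at, with 0.924, 0.954 and 0.929. Zm.4598.1.S1_at averaged 467 ± 18.5 in Mo17 and 460.4 ± 26.4 in Mo17xB73 against 179.8 ± 29.8 in B73 and 194 ± 38.8 in B73xMo17. Zm.6752.1.A1_at had an even weight, 1.13, 1.09 and 1.15, although its signal moved widely: Mo17 was at 2929, 5349.6 and 4707 and Mo17xB73 at 2618, 6415 and 4630.1. Both genotypes with a Mo17 female were thus low in replicate 1 and high in replicate 2.

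The least even on the B73 side was Zm.10030.1.S1_at. Its Mo17 arrays read 1.06, 2.76 and 265, while B73 lay at 300.2, 328 and 291. Its weights by date were 0.902, 0.784 and 2.35, and the weight from the means, 0.902, became 0.786 without the third Mo17 array. Loss of any 1 of 6 arrays took it out of the rule. On the Mo17 side Zm.14324.1.A1_at had the widest range, with weights of 2.77, 1.14 and 0.941, its Mo17 arrays being at 684, 1293 and 1203 and its Mo17xB73 arrays at 906, 1779 and 1114.

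**Figure D4:**
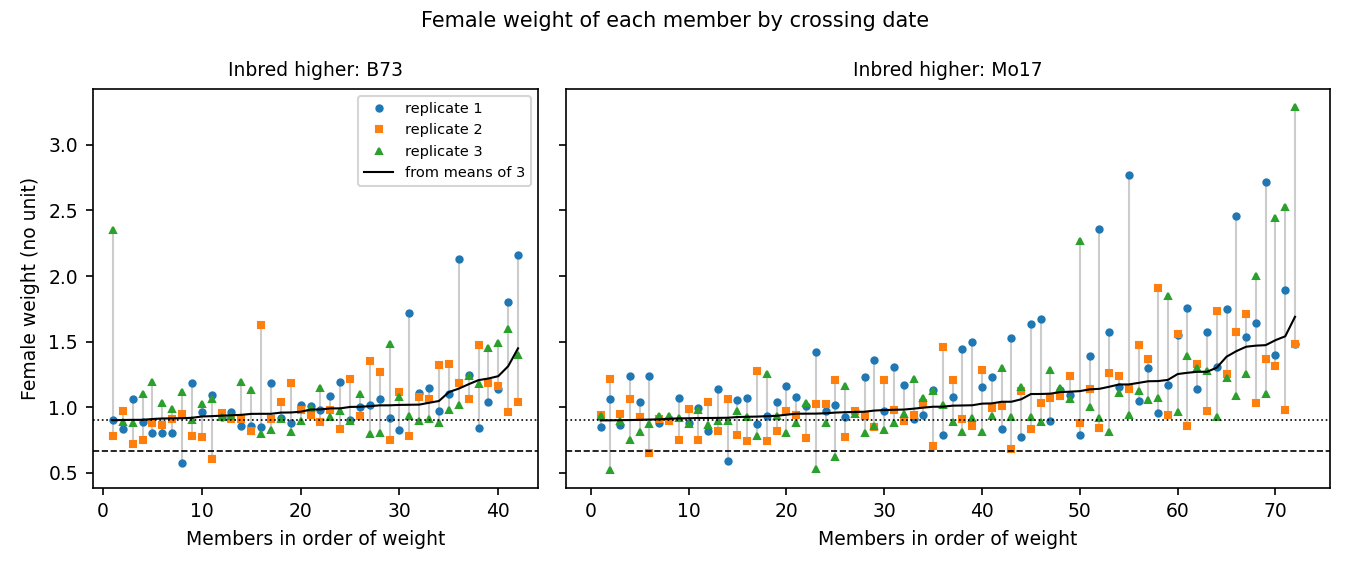
Female weight (vertical axis, no unit) of each member on the 3 crossing dates (symbols) and from the means of 3 arrays (black line), members in order of weight; the dashed line is dose at 0.667 and the dotted line 0.9. The grey bars span the 3 dates; 107 of 114 members stay above 0.667 on each date, and the widest bar spans 1.83.

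Membership depended on single arrays and on scaling for many of them. Of the 114, 42 met the rule whichever single array was left out, 68 met it under each of 3 other scalings, and 39 did both, 12 higher in B73 and 27 higher in Mo17. At the limit, the members just inside on the B73 side were Zm.10030.1.S1_at, Zm.13202.1.A1_at and Zm.11815.1.A1_a_at at 0.902 to 0.905, and just outside were Zm.4248.1.A1_at, Zm.8152.1.S1_at and Zm.17306.1.A1_at at 0.897, 0.895 and 0.894. On the Mo17 side Zm.10090.1.A1_x_at, Zm.2594.1.S1_at and Zm.11667.1.A1_at lay inside at 0.9004 to 0.902, and Zm.2258.1.S1_at, Zm.3856.1.S1_at and Zm.811.1.A1_at outside at 0.8997, 0.899 and 0.898. A further 110 probe sets with hybrids that did not overlap had weights between 0.8 and 0.9.

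Arrays of one date and one female line tended to deviate together. Each array's log2 deviation from its genotype's mean was correlated over the 114 members with that of another array of the same date. Over the 6 pairs that share the female (an inbred and the hybrid it mothered) the median r was 0.39, over the 6 pairs that share the inbred as the male it was 0.073, and over the 6 remaining pairs it was -0.0090. Over the 11634 other tested probe sets these medians were 0.21, 0.11 and 0.18. Over the 1399 other unannotated probe sets that met the inbred conditions they were 0.25, 0.17 and 0.24. Single pairs that share the female ran from 0.15 to 0.55 over the members and from 0.18 to 0.47 over these 1399, so the ranges overlap. These values are across probe sets, which are not independent, and the comparison was added after the values were seen.

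Replicate 1 carried the clearest cases. In 7 members higher in Mo17, replicate 1 of both B73 and B73xMo17 was at least 1.5-fold above their other replicates, with signals of at least 50; the same held for 0.783% of all tested probe sets. Zm.13137.2.S1_a_at is one, at 2065, 1053 and 734 in B73 and 2002, 965 and 776 in B73xMo17, while Mo17 stayed at 3049.6, 3102 and 3375. Zm.13480.1.S1_at is another, at 2218, 1442 and 1035 in B73 and 2184, 1388 and 939 in B73xMo17. The named genes sus1, which encodes a sucrose synthase, zSSIIa, a starch synthase, and per-1 had this pattern too. In 5 members replicate 1 of both Mo17 and Mo17xB73 stood out in that way, against 0.749% of all tested, and both Zm.7304 probe sets are among them: Zm.7304.2.S1_x_at was at 671, 299.8 and 184 in Mo17 and 635, 205 and 284 in Mo17xB73.

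A difference between the 3 dates was tested for every probe set in a limma fit of genotype and date, with Benjamini-Hochberg adjustment over the 11748 probe sets that passed the filter on dim values. All 114 members passed that filter. The date term was common to all genotypes. A deviation shared only by arrays of the same female line therefore fell partly into the residual. For this reason the shares called cannot decide whether the members differ from other probe sets in such deviations. At an adjusted p under 0.05 the test called 3 members (2.63%), beside 2.38% of all tested. They were Zm.17274.1.A1_at (adjusted p = 0.0325), Zm.1527.2.A1_a_at (0.0350) and Zm.15576.3.A1_a_at (0.0419). The count was 0 without Mo17xB73 replicate 3 and 1 without B73 replicate 3, any 1 of the Mo17 arrays or B73xMo17 replicate 1.

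The sum of both hybrids against the sum of both inbreds is a contrast that neither the inbred nor the reciprocal difference fixes, and dose leaves it at 0. It was tested with limma on log2(scaled signal + 10.6), as log2 of the hybrids' summed level minus log2 of the inbreds' summed level. At an adjusted p under 0.05 none of the 114 members was called, and 0.204% of all tested were (24 probe sets). With the crossing date as a replicate block 74 were called, again none of them a member. At an unadjusted p under 0.05 the hybrids were higher in 18 members (15.8%), against 4.19% of all tested, and lower in 0, against 4.03%. Among the 1399 other unannotated probe sets that met the inbred conditions the shares were 8.72% higher and 6.72% lower. The members' shares are not free of the choice, as set out below. The median over the members was 0.17, with 95 of 114 above 0, beside a median of -0.0050 over all tested. Without Mo17 replicate 3 there was 1 called member, and the median standard error of a value was 0.11.

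The lowest adjusted p of a member, 0.246 by limma, belonged to Zm.13478.1.S1_at, at 0.51 with a standard error of 0.14. It was at 246, 229 and 236 in B73, 78.4, 43.1 and 51.5 in Mo17, 299, 308 and 268 in B73xMo17 and 157, 139 and 109.6 in Mo17xB73. All 3 arrays of each hybrid were above all 3 of its female. Zm.5912.2.S1_a_at had the next lowest, with 0.51, a standard error of 0.15 and an adjusted p of 0.309 by limma. Its Mo17xB73 arrays were at 911, 763 and 823 against 460.4, 495 and 633 in Mo17.

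The weight rises with upward error of the brighter hybrid, and with downward error of the dimmer hybrid or brighter inbred. The sums of the members are therefore not free of the choice. On the left-out dates the log2 ratio of the hybrids' to the inbreds' summed scaled signals was taken with no constant added. Its medians were 0.05, 0.06 and 0.12 for the chosen probe sets and 0.0053, -0.00029 and 0.03 for the others. On each date the median of the chosen probe sets was above that of the others. The 0.17 over the members came from another measure and another set, so it is not ranked against these.

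Array names gave what is known of the probes. A name ending in x_at marks a probe set with probes that may also match other transcripts, s_at one whose probes are shared by several transcripts, and a_at one shared by transcripts of 1 gene. Such endings occurred in 26 of the 114 members, the other 88 (77.2%) having the plain ending, beside 87.0% plain among the 1399 other probe sets that met the inbred conditions. All 9 x_at members were higher in Mo17. For these the signal may hold more than 1 transcript.

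In 36 members the cluster number was shared with at least 1 other probe set, over 30 clusters and 68 other probe sets. Of the 68, 26 were under 100 in both inbreds and 30 were brighter but differed by less than 2-fold. The 10 unannotated ones that met the inbred conditions had weights of 0.300 to 0.893 with a median of 0.778, and 9 of the 10 were higher in the same inbred as the member. Probe sets of one cluster can share transcripts and are not independent measurements.

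More than 1 member fell in each of 5 clusters. Cluster Zm.1090 held 3, with weights of 1.04, 1.26 and 1.12, and clusters Zm.18107, Zm.18259, Zm.7304 and Zm.9425 held 2 each. All 11 of these members were higher in Mo17. In cluster Zm.9425 both B73xMo17 means, 156 and 206, were below the B73 means of 257 and 320.2, and both Mo17xB73 means, 1017 and 1322, above the Mo17 means of 701 and 872.

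Other clusters held probe sets that differed from the member. Beside the brightest member, Zm.10090.1.A1_at met the inbred conditions with a weight of 0.684 and means of 1323 in B73, 4439 in Mo17, 1352 in B73xMo17 and 2499 in Mo17xB73. In cluster Zm.886 the second probe set that met the inbred conditions, Zm.886.2.S1_at, had a weight of 0.860 and a B73xMo17 mean of 1121 above 737 in B73, where the member's B73xMo17 mean was below B73. In cluster Zm.13137, Zm.13137.1.S1_x_at was higher in B73, at 102 against 41.9 in Mo17, with a weight of 0.300. In cluster Zm.14324 the member was the only probe set to meet the inbred conditions, Zm.14324.3.A1_x_at being at 81.1 in B73 and 153 in Mo17, under the 2-fold limit. In cluster ZmAffx.1112 the member was at 1030.1 in B73 and 457 in Mo17 and its partner at 168 and 181.

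Cluster Zm.12666 is the one with named genes. Its member, Zm.12666.4.S1_x_at, was at 455, 291 and 242 in B73, 1517, 1692 and 2314 in Mo17, 387, 594 and 536 in B73xMo17 and 2282, 2391 and 2617 in Mo17xB73, with a weight of 1.14. Both annotated probe sets of meg2, a cysteine-rich peptide gene of the basal transfer layer, were close to it, with weights of 1.12 and 1.09. The probe set of meg6, of the same family, was level between the inbreds, at 757 in B73 and 775 in Mo17.

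Annotated probe sets are outside the rule, but 29 of the 144 that met the inbred conditions also met its other numbers (20.1%). Higher in B73 were GRF5, the energy-sensing kinase gene SnrK1, the auxin-binding protein gene abp1, the translation elongation factor gene elfa2, the heat shock gene hsp18a, m25 and both probe sets of HRGP, a hydroxyproline-rich glycoprotein of the cell wall, beside obf3.2. HRGP showed the largest difference, 616 ± 128 in B73 and 13.9 ± 7.09 in Mo17, with 722 ± 234 in B73xMo17 and 100.2 ± 15.9 in Mo17xB73. The brightest higher in Mo17 were pdc1, a pyruvate decarboxylase, zSSIIa, meg2 with 2 probe sets, trxh1, a thioredoxin, Scl1, BET1, a transfer layer protein, and sus1. zSSIIa was at 364 ± 205 in B73, 393 ± 150.2 in B73xMo17, 2987 ± 281 in Mo17 and 3171 ± 806 in Mo17xB73.

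Markers of kernel tissues and genes known as imprinted gave the setting in which the members lie. Of 9 tested genes of the basal transfer layer, the cells at the kernel base that take up nutrients from the mother plant, all 9 were higher in Mo17xB73 than in B73xMo17 by limma at an adjusted p under 0.05, where 9.24% of all tested probe sets were, and 7 met the numbers of the rule. In the inbreds 7 of the 9 were higher in Mo17, where 24.5% of all tested were. For bap2 the reciprocal difference was -1.97 on the log2 scale, B73xMo17 minus Mo17xB73, with a standard error of 0.19 (limma, adjusted p = 2.24e-05), and for meg2 it was -1.88 with a standard error of 0.18 (limma, adjusted p = 2.26e-05). The summed signal of the 9 genes was 2339 to 3319 in B73, 3011 to 4217 in B73xMo17, 7527 to 10364 in Mo17 and 10143 to 11012 in Mo17xB73. It was thus higher wherever Mo17 was the female, and its part in the excess of members higher in Mo17 was not tested. Fewer cells of a type and less RNA per cell cannot be told apart in such pools.

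Of 4 tested embryo genes 3 were higher in Mo17 between the inbreds, where 24.5% of all tested probe sets were. Between the hybrids 1 was called, glb1, a globulin of embryo storage, which also met the numbers of the rule with a weight of 1.12. Its difference was -2.19 on the log2 scale, B73xMo17 minus Mo17xB73, so it was higher in Mo17xB73 (limma, adjusted p = 0.00636). The oil body protein gene ole1 had a difference of -1.20 in the same direction of subtraction, with an adjusted p of 0.0540 by limma, and of 0.0292 with the replicate block. Its B73xMo17 arrays were at 1149.9, 333 and 292. The summed embryo signal of 655.6 to 1726 in B73xMo17 had its top value in replicate 1, as had the 7 members above, and ran from 1706 to 2311 in Mo17xB73. In B73 it ran from 475 to 1034 and in Mo17 from 1522 to 1834; its part in the members was not tested.

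None of the 4 tested genes of green and maternal tissue, of 8 on the array, differed between the hybrids at that threshold. Their summed signal was low, at 232 to 252 in B73xMo17, 185 to 237 in Mo17xB73, 206 to 272 in B73 and 166 to 260 in Mo17. The 2 with the lowest p, the photosystem gene psah1 and the flavonoid gene fht1, had adjusted p of 0.164 and 0.749 by limma. Between the inbreds psah1 was higher in B73, by 0.98 on the log2 scale (limma, adjusted p = 0.00407). Of 6 aleurone genes 2 were higher in Mo17xB73, with differences of -0.70 for the proton pump gene vpp1 (limma, adjusted p = 0.00726) and -2.05 for per-1 (limma, adjusted p = 0.00810). Of the 6, only per-1 met the numbers of the rule, with a weight of 1.04. Between the inbreds 4 of the 6 differed, 2 in each direction. Among those higher in B73 was the lipid transfer protein gene PLTP, named after its values were seen, with means of 906 in B73 and 47.8 in Mo17 and a weight of 0.357. The 6 genes summed to 2186 to 4226 in B73, 2805 to 3122 in Mo17, 2010.1 to 3389.9 in B73xMo17 and 3561 to 3872 in Mo17xB73. Replicate 1 had the top sum in both B73 and B73xMo17, and its part in the members was not tested.

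Of 13 tested genes of starchy endosperm, the storage cells, 5 were higher in B73xMo17, where 10.8% of all tested probe sets were, and 1 in Mo17xB73, and in the inbreds 7 were higher in B73, where 23.5% of all tested were. The storage protein regulator o2 was at 3905 ± 752 in B73 and 178 ± 14.1 in Mo17, with 2945 ± 372 in B73xMo17 and 1651 ± 546 in Mo17xB73. The starch branching enzyme gene ae1 had a difference of 0.33 (limma, adjusted p = 0.00841), which was not called under 3 other scalings, at adjusted p of 0.0512 to 0.517 by limma. None of the 13 met the numbers of the rule. The embryo surrounding region had 1 tested gene, ESR1, with an adjusted p of 0.594 by limma.

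Of 6 tested genes listed from the literature as imprinted in maize endosperm or as relatives of such genes, 3 differed between the hybrids and none met the numbers of the rule. The Polycomb genes mez1 and fie1, known for expression from the maternal copies, were higher in B73xMo17 by 0.76 and 0.67 on the log2 scale (limma, adjusted p = 8.3e-04 and 0.00364). For fie1 the values as deposited gave an adjusted p of 0.106 by limma. TUBB2, a tubulin gene, had a difference of -0.70 (limma, adjusted p = 0.0190). The weights of mez1 and fie1 were 0.994 and 1.03, above the 0.9 of the rule. They did not meet its 2-fold limit between the inbreds, with means in B73 and Mo17 of 1156 and 713 for mez1 and of 1225 and 830.0 for fie1. TUBB2 met the inbred conditions and had a weight of 0.873.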

How the data were processed

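The deposited intensity values are linear, 1 signal per probe set and array. Per the submitters' processing notes the authors computed them with MAS5, and the sources used here state neither its version nor its scaling target. Deposited 2% trimmed means ran from 299.7 to 452 between arrays. Each array was scaled to their mean of 363, over the 17621 probe sets other than the 113 controls. The number of arrays, 3 per genotype, limits the precision.

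For tests, the dimmest 33.3% were left out, 10.6 (the 20th percentile of scaled values) was added, and log2 values were fitted with limma 3.58.1 in R 4.3.3 (lmFit, eBayes with trend, 8 residual degrees of freedom), two-sided, with Benjamini-Hochberg adjustment over 11748 probe sets at 0.05. The contrast of summed levels used the delta method. The fit was tested on simulated data. Gene symbols came from the platform annotation of the array, which gave 1 symbol for 1452 probe sets.

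The members, gene lists and tests were chosen with earlier results of these data known. Named members were the 6 brightest, the 6 with the largest inbred ratio, the 4 most and least even, the 3 with the highest weights and the 3 on each side of the limit, per direction, with the annotated probe sets, clusters and 2 genes per list of lowest p. Members named for a date effect or in the pattern of replicate 1 were picked after their values were seen.

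The labels say that a replicate number marks a shared crossing date, so the numbers pair the samples. The main contrasts between genotypes were fitted without a date term and so did not use that pairing. Same-numbered arrays deviated together with r of 0.05 to 0.41 over 18 pairs, and arrays of different number with r of -0.31 to 0.15. Alternatives were other scalings, limits, filters and constants, a replicate block, and leaving out arrays or dates. No sequences of the probes were used here.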

Additional observations from a re-analysis of the deposited data

How the results depend on the processing

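The rule gave 114 probe sets. It gave 224 with a weight of at least 0.8, 56 with at least 1.0, 69 with a floor of 200 for the brighter inbred, 26 with an inbred ratio of 4, and 102 to 148 when arrays or dates were left out. Other scalings gave 142 as deposited (93 of them members), 114 by quantile normalization (105) and 88 by median centring (81). Among 252 recomputed weights of the 42 named members, 9 moved by more than the SD of their 3 weights by date. That SD is taken over the dates, so the count says little about leaving out a date, which moved 0 of the 42 each time. Median centring put 14 of the 42 below 0.9, and quantile normalization and the values as deposited 1 each. Without replicates 1, 2 and 3 the numbers below 0.9 were 10, 7 and 10.

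The contrast of hybrids with inbreds called 24 probe sets, 74 with the replicate block, 14 without the mean-variance trend and 17 to 44 without single arrays. It called 494, with 5 members, as a contrast of mean log2 levels, which dose alone can raise; in the other settings 0 members were called, and 0 to 1 without single arrays.

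The date test called 280 probe sets, 908 after median centring, 109 with no filter and 53 to 192 without single arrays. Its called members, 3 in number, became 7, 6 with 4 times the constant, 0 with no filter, 6 with the dimmest 0.5 left out, and 0 to 3 without single arrays.

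Of the named list genes, fht1 and ESR1 changed sign without single arrays, over -0.017 to 0.26 and -0.73 to 0.17, and neither passed the threshold in any setting run. The block gave 24 called list genes between the hybrids in place of 21; apart from ole1 and these counts it changed no call of a named gene. The number of arrays, 3 per genotype, limits the precision, and the causes of these shifts were not tested.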
